A study of Mus musculus with 2 samples.

Results

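Cdk4, Ccne1, Tfdp2, Bax and Csrnp1 are 5 genes of cell division and cell death that carried peaks of Bcl3 chromatin immunoprecipitation and sequencing (ChIP-seq) in mouse embryonic stem cells. They were chosen by name from the deposited peak annotation, with their peaks already known, out of 592 genes that the authors' sheet gives as the closest gene of a peak. Together they held 8 of the 1130 listed peaks. Csrnp1 had 3 of these, Tfdp2 had 2, and Cdk4, Ccne1 and Bax had 1 each. Because having a peak selected the genes, their peaks are described below and no test is made of them.

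The series comprised 1 library of chromatin recovered with an anti-Bcl3 antibody from enzyme-digested nuclei and 1 input library, and neither was replicated. Both came from the mouse embryonic stem cell line CGR8, kept undifferentiated on 0.1% gelatin in medium with 15% serum replacement and leukemia inhibitory factor at 1000 U/ml. The peak list came from the Bcl3 library, the input library was not analysed here, and the depth of both is unknown. ChIP averages over a cell population, so stronger occupancy in few cells and weaker occupancy in many cannot be told apart, and no expression was measured that could check the cell type or show what a peak does to a gene.

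Bcl3 is a nuclear member of the IκB family that works through the p50 and p52 subunits of NF-κB, and it is known as a proto-oncogene linked to proliferation and survival. Cdk4 encodes the kinase that D-type cyclins activate to phosphorylate the retinoblastoma protein. Ccne1 encodes cyclin E1, which activates Cdk2 at the entry into S phase, and Tfdp2 encodes DP2, a partner that E2F factors need to bind DNA. Bax encodes a BCL2-family effector that opens the outer mitochondrial membrane in apoptosis. Csrnp1, also written Axud1, encodes a cysteine-serine-rich nuclear protein first described as a gene induced by axin.

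The sequence just before the start is shown for Cdk4, Ccne1 and Bax, because each of these has a single start in the reference table and a peak beginning less than 1 kb downstream of it. Each run is the 250 bases before the start, 5′ to 3′ on the gene's strand, from RefSeq on build GRCm38.p6. Capitals mark E boxes (CACGTG, the core bound by Myc and related factors) and GC boxes (GGGCGG or its complement, the core bound by Sp factors).

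Cdk4 (plus strand, chr10:127063285-127063534): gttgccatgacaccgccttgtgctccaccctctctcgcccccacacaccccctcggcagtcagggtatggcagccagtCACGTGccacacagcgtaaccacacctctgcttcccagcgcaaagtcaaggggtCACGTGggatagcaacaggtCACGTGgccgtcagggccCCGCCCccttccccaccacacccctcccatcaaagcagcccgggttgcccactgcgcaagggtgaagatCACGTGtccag

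Ccne1 (minus strand, chr7:38107491-38107740): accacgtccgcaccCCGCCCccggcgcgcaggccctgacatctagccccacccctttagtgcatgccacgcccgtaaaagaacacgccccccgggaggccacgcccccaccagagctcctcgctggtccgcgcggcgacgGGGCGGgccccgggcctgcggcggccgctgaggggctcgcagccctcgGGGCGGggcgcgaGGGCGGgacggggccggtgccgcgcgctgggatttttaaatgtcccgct

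Bax (minus strand, chr7:45466899-45467148): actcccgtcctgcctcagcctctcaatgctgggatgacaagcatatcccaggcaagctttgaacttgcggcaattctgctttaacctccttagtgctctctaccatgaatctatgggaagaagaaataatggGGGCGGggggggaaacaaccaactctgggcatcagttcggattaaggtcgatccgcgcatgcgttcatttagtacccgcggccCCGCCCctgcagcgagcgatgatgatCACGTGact

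The Cdk4 window held 4 E boxes, which begin 172, 118, 98 and 11 bases before the start. Of 32851 promoter windows of that length in the table, 7 (0.0213%), this one included, held at least 4, while 6.02% held at least 1. Bax had 1 E box, 9 bases before the start, and Ccne1 had none. Ccne1 had 4 GC boxes, Bax 2 and Cdk4 1, where 32.7% of all windows held at least 1 and 4.09% held at least 4. Guanine and cytosine made up 76.0% of the Ccne1 window, 64.4% of the Cdk4 window and 54.0% of the Bax window, against a median of 52.4%. A loose κB pattern (GGG and CC separated by any 5 bases, on either strand) occurred 4 times in Ccne1, 2 times in Cdk4 and 1 time in Bax, and 45.8% of all windows held it. In Ccne1 3 of these 4 places overlap each other, and in Cdk4 both do. At least 1 in each gene overlaps a GC box. The letters TTTNGCGC, 1 form of the E2F site, and the box CCAAT matched none of the 3 windows, against 1.13% and 33.8% of all windows. Other forms of the E2F site were not searched. Windows of 1 gene can overlap in the table, and a match is only a run of letters. The peaks are positioned on mm9, and by their distances from the start they lie beyond these bases, inside the genes. The annotated start can differ between the builds, since Cdk4 spans 3679 bp in the deposited sheet and 3754 bp in the reference table.

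All but 1 of the 8 peaks lay near a start. By the midpoint, 7 were within 5 kb of the start of their gene and 3 were within 1 kb, where 21.9% of all 1130 peaks were within 5 kb of any listed start. Of the 8, 7 lay downstream of the start. The shares of all peaks within 1 kb of a start or downstream of one were not taken, so these counts cannot be called common or rare. The summit was in intron 1 for 4 peaks, those of Cdk4, Tfdp2 and 2 of Csrnp1, where 22.3% of the 623 peaks with a closest transcript had theirs in intron 1. The remaining summits lay upstream of Csrnp1, in exon 3 of Ccne1, and in intron 3 of Bax and of a Tfdp2 transcript. The shares given show how common a place within 5 kb or in intron 1 was, and the genes were chosen from their peaks.

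**Figure D1:**
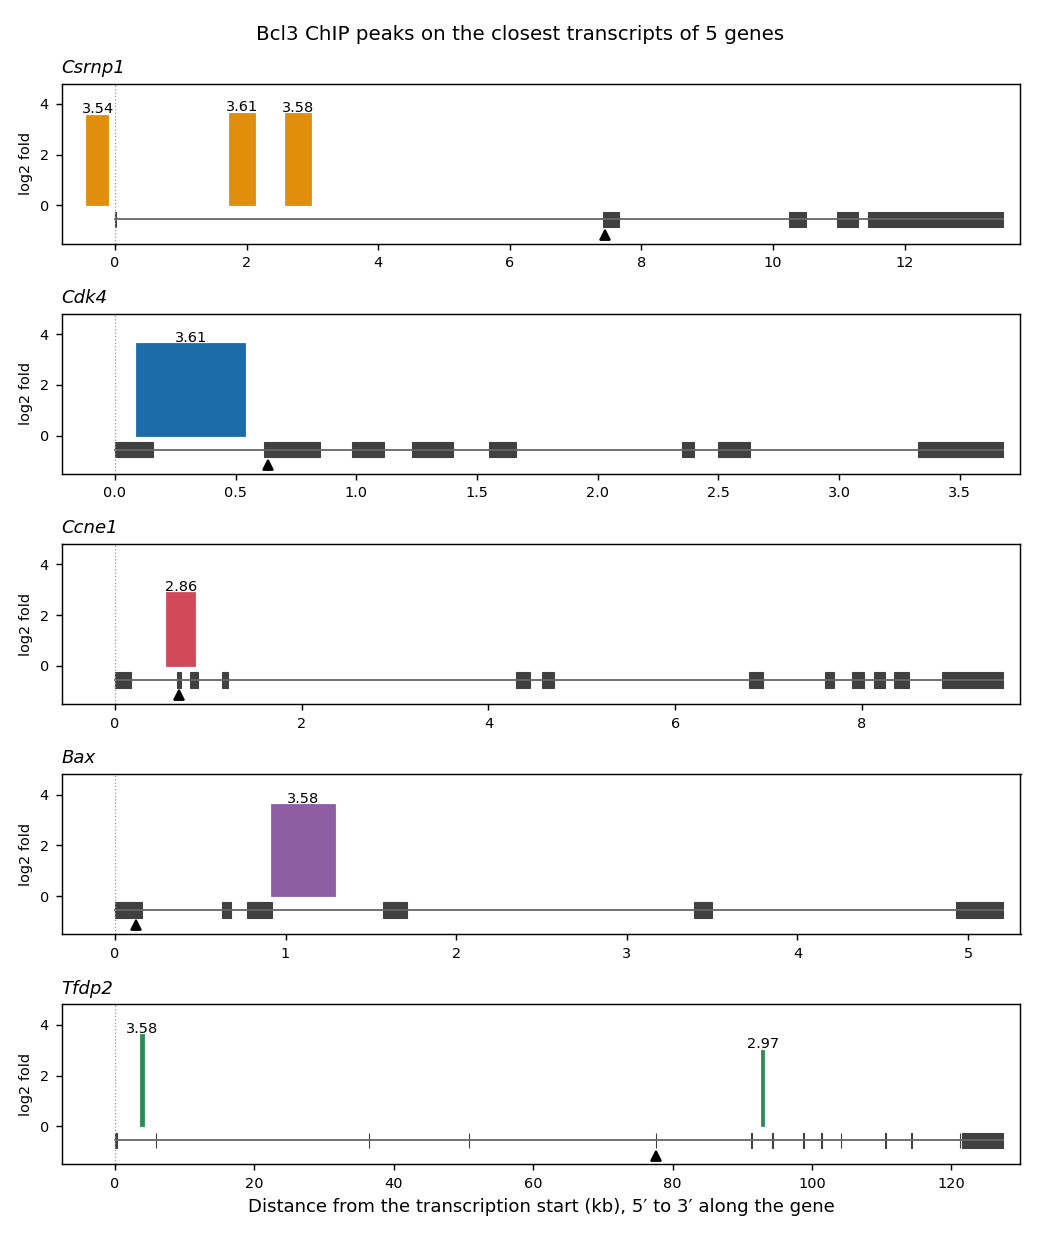
Peaks on the closest transcripts of the 5 genes, with the distance from the transcription start in kb on the x axis (a different scale in each panel) and the authors' log2 fold enrichment on the y axis. Coloured bars span each peak and end at its log2 fold, dark boxes are exons, triangles mark the start of the coding region, and the dotted line is the transcription start. The 3 Csrnp1 peaks of 3.54, 3.61 and 3.58 flank the first exon and its start, whereas the second Tfdp2 peak lies about 93 kb into the gene.

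The peak of Cdk4, on mm9 chromosome 10 at 126500750 to 126501199, had a log2 fold enrichment of 3.61, which is 12.2-fold. It began 92 bp and ended 541 bp downstream of the start, covering the last 65 bp of exon 1 and most of intron 1, which is 461 bp long. Its summit lay 424 bp from the start, in intron 1. The coding region begins at 633 bp, in exon 2, so the whole peak lay in the noncoding 5′ part of the gene. The deposited class 5′ UTR of this and of 3 other peaks, at Csrnp1 and Tfdp2, covers introns that precede the coding region.

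Cyclin E1 had the weakest of the peaks, with a log2 fold enrichment of 2.86 (7.28-fold), on chromosome 7 at 38891650 to 38891949. It lay 559 to 858 bp downstream of the Ccne1 start. The peak took in the last 102 of the 493 bp of intron 1, all 42 bp of exon 2, where the coding region begins, all of intron 2 and 52 of the 87 bp of exon 3. Its summit was in exon 3 at 851 bp, while the position of greatest fold was in intron 2 at 721 bp. The deposited class of this peak is intron.

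Both peaks of Tfdp2 were inside the gene and far apart. The stronger, on chromosome 9 at 96100400 to 96100899, had a log2 fold enrichment of 3.58 (12.0-fold) and was the longest of the 8 at 500 bp. It lay in the 5571 bp intron 1 of the transcript NM_178667, with its midpoint 3883 bp from the start in the wider annotation and 3956 bp in the closest-transcript sheet, which begins the same transcript farther upstream. The weaker, on the same chromosome at 96189550 to 96189799, had a log2 fold enrichment of 2.97 (7.84-fold). It lay 92.9 kb from the NM_178667 start and 30.0 kb from the start of NM_001184711, in intron 3 of the latter. In both transcripts it follows the exon after the one in which the coding region begins.

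The peak of Bax, on chromosome 7 at 52720975 to 52721349, had a log2 fold enrichment of 3.58 (12.0-fold). It lay 918 to 1292 bp downstream of the start, in intron 3, which is 653 bp long, and overlapped exon 3 by 3 bp. Since the Bax coding region begins 123 bp from the start, in exon 1, this peak lay within the coding part of the gene, unlike the Cdk4 peak. Intron 1 of Bax held no listed peak.

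Csrnp1 carried a group of peaks around its start, on chromosome 9. The upstream peak, at 119893875 to 119894199, ended 100 bp before the start and had a log2 fold enrichment of 3.54 (11.6-fold). The peaks at 119891650 to 119892024 and 119890800 to 119891174 had log2 fold enrichments of 3.61 and 3.58, with midpoints 1938 and 2788 bp downstream. Both lay in intron 1, which is 7389 bp long and precedes the coding start at 7452 bp. The gaps between neighbouring peaks were 1850 and 475 bp, and the 3 peaks together spanned 3.4 kb. Joining peaks across gaps of up to 2 kb gave 1 group of at least 3, which is that of Csrnp1. The 3 peaks of Zmynd8 spanned 3925 bp, little more than those of Csrnp1, but were not all joined at that gap. Another peak within 2 kb was present for 29 of all 1130 peaks.

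Repeated peaks at 1 gene were uncommon, with 4.9% of the 592 closest genes having 2 or more. Tfdp2 was among these 29 genes, and Csrnp1 and Zmynd8 had 3 peaks each. Csrnp1 and Zmynd8 differed in the place of their peaks. The Zmynd8 peaks had log2 fold enrichments of 3.55, 2.97 and 2.77 and lay 34.1 to 37.8 kb inside that gene, in introns 10 and 11, whereas the 3 log2 folds of Csrnp1 stayed between 3.54 and 3.61. The Poisson scores (the authors' −log10 of the smallest Poisson p-value in a peak) spread more at Csrnp1, from 5.92 to 11.6, than at Zmynd8, from 6.93 to 10.4. The false discovery rate is the authors' estimate for each peak, and no listed peak had one below 0.179. In 4 of the 29 genes, Csrnp1 included, every peak had that lowest rate. The 2 Tfdp2 peaks, 89.4 kb apart from outer edge to outer edge, had rates of 0.179 and 0.296.

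By fold enrichment, 6 of the 8 peaks were among the 113 highest of the list. Over all peaks the log2 fold ran from 2.48 to 4.02 with a median of 2.93, and the 90th percentile was 3.44. The peaks of Cdk4 and of Csrnp1 at 1938 bp tied at 3.61, with 41 peaks above them. Those of Tfdp2 in intron 1, Bax and Csrnp1 at 2788 bp tied at 3.58, with 47 above, and the upstream Csrnp1 peak had 68 above. Ties were common, since the 1130 peaks took only 491 distinct values, so no order can be read within a tie. These 6 peaks had a false discovery rate of 0.179, the lowest of the list, which 21.1% of all peaks shared. The Tfdp2 peak at 2.97 had a rate of 0.296 with 508 peaks above it, and the Ccne1 peak had 0.347 with 656 above.

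The Poisson score set the genes in another order. It ran from 5.00 to 100 with a median of 5.80. The Csrnp1 peaks in intron 1 scored 11.6 and 9.44, at ranks 17 and 39, and they were the only 2 of the 8 among the 113 highest by this score. The upstream Csrnp1 peak scored 5.92 (rank 514) and the Tfdp2 intron 1 peak 5.82 (rank 559), both close to the median. The peak of Bax scored 5.66 (rank 643), that of Ccne1 5.43 (rank 773) and the weaker Tfdp2 peak 5.34 (rank 835). Cdk4, tied for the highest fold of the 8, had the lowest score, 5.05, at rank 1078. Of the 5 genes, only Csrnp1, with its peaks in intron 1, was among the 113 highest by both measures.

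The 6 peaks among the highest by fold were each longer than the Ccne1 peak and the weaker Tfdp2 peak. All 8 peaks were longer than the list's median of 200 bp, from 250 bp for the weaker Tfdp2 peak and 300 bp for Ccne1 to 450 bp for Cdk4 and 500 bp for Tfdp2 in intron 1. Bax and the Csrnp1 peaks in intron 1 measured 375 bp each, and the upstream Csrnp1 peak 325 bp. Among peaks within 25 bp of the same length, 0 of the 8 reached the top 10% by fold. The Cdk4 peak then ranked 6 of 25, the Tfdp2 intron 1 peak 6 of 16, Bax 16 of 84 and the 3 Csrnp1 peaks 14 of 84, 16 of 84 and 21 of 143. The weaker Tfdp2 peak ranked 206 of 315 and Ccne1 189 of 206. The part of length in the fold was not tested.

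**Figure D2:**
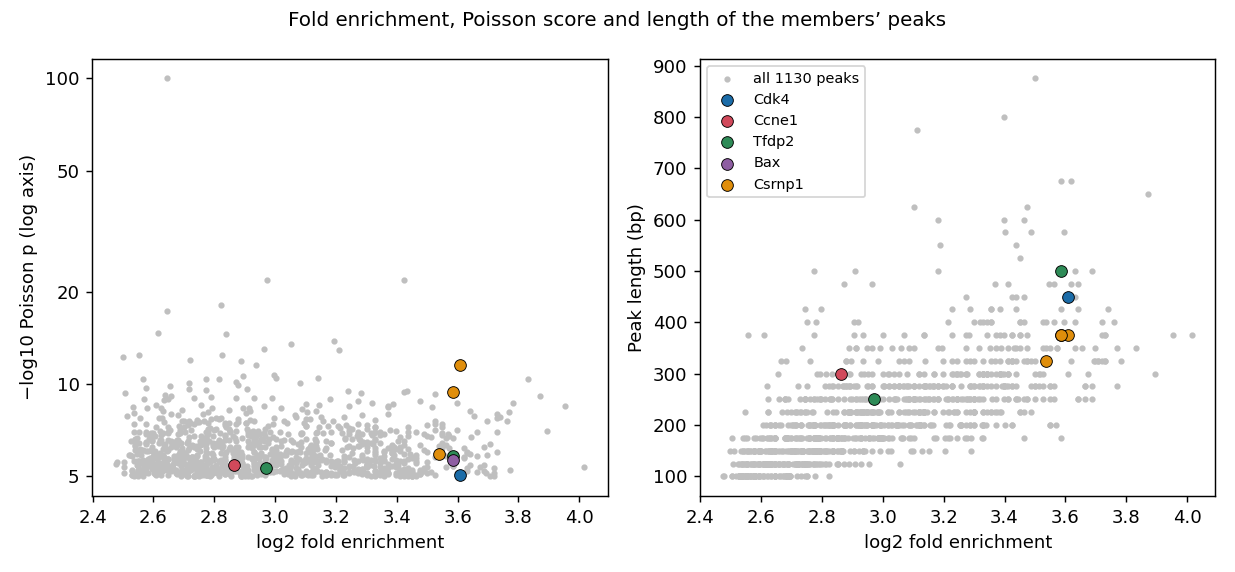
Log2 fold enrichment (x axis) of all 1130 peaks (grey) and of the peaks of the 5 genes (coloured) against the −log10 Poisson p on a log axis (left) and against peak length in bp (right). In the left panel the Csrnp1 peaks at 11.6 and 9.44 stand above the others while Cdk4 at 5.05 lies at the lower edge, and in the right panel the point of Bax is covered by a Csrnp1 peak with the same fold and length (3.58, 375 bp).

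Other genes shared the surroundings of the Cdk4 and Bax peaks. The Cdk4 peak lay 3735 bp upstream of the start of Marchf9, a membrane ubiquitin ligase gene on the opposite strand, whose symbol the workbook holds as a date and which was recovered through its identifier NM_001033262. It also lay 6342 bp from the start of Tspan31, a tetraspanin gene whose end faces the end of Cdk4. The Bax peak lay 5907 bp upstream of the start of Ftl1, which encodes the ferritin light chain. No other gene had a start within 10 kb of the peaks of Ccne1, Tfdp2 or Csrnp1. Within 50 kb the Cdk4 peak had 6 other genes and the Bax peak 7, the Csrnp1 peaks had 3, and the peaks of Ccne1 and Tfdp2 had 0. The start of the gene itself was the nearest listed start for 7 of the 8 peaks. For the weaker Tfdp2 peak the nearest listed start was that of Atp1b3, 75.0 kb away, since the wider annotation lists a single Tfdp2 transcript for it.

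The wider annotation names the 5 genes for 13 peaks, 5 more than the closest-transcript sheet. Of these 5, a peak 93.8 kb upstream of Bax (log2 fold 3.23) lay 1504 bp from the start of Hsd17b14. A peak 92.9 kb upstream of Csrnp1 (2.99) lay 9.25 kb from the start of Cx3cr1. The others were 149 kb upstream of Ccne1, 573 kb upstream of Cdk4 and 626 kb downstream of the Tfdp2 start, with log2 folds of 3.14, 3.56 and 3.73, and for each of them another gene's start was nearer. They are not counted as peaks of the 5 genes.

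Peaks of other genes were close in fold to those of the chosen genes within the same kind of place. Among peaks of other genes with the summit in intron 1, those of Fars2 (log2 fold 3.64, summit 623 bp from the start) and Klhl23 (3.56, 276 bp) were nearest in fold to the Cdk4 peak and to the stronger Csrnp1 peak in intron 1. Klhl23 and Dlg2 (3.55, 129 kb) were nearest to the Tfdp2 intron 1 peak and to the other Csrnp1 peak in intron 1. Among peaks within 1 kb upstream of a start, Foxn2 (3.52, 319 bp upstream) and Ttc8 (3.56, 126 bp upstream) were nearest to the upstream Csrnp1 peak. Outside both places, Klhl24 and Kcnma1 had the same fold as Bax (3.58), Foxp4 and Nckap5l the same as the weaker Tfdp2 peak (2.97), and Mpped2 the same as Ccne1 (2.86), with Tmprss15 next (2.87). The summits of these peaks outside both places lay from 134 bp (Kcnma1) to 125 kb (Mpped2) from the start. That kind of place held 68.5% of the 623 peaks with a closest transcript. Likeness is the difference in log2 fold within the same kind of place, in 1 library. Distance from the start was not matched.

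Of 6 close relatives of the 5 genes, none was the closest gene of a peak, where 2.52% of 21900 protein-coding genes were. At that share, 6 genes are too few to read a lack from. The nearest listed peak was 252 kb from the start of Cdk6, the other kinase of D-type cyclins, 302 kb from Ccne2, which encodes cyclin E2, and 186 kb from Bak1, which encodes the other main BCL2 effector. It was 134 kb from Csrnp2 and 582 kb from Csrnp3, where the median over the listed protein-coding genes was 233 kb. Tfdp1, which encodes the main E2F partner, was not listed for any peak, and only 40.4% of protein-coding genes were. With the depth unknown, the lack of a listed peak does not show that Bcl3 was missing there.

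Among 54 cell cycle genes grouped by role, 5 were closest to a peak (9.26%). These were Cdk4, Ccne1, Tfdp2, Rbl1 and Fbxw7. Since the first 3 were chosen for their peaks, the other 51 genes are the ones to read. Of these, 2 (3.92%) were closest to a peak, against 2.52% of 21900 protein-coding genes. A count of 2 is too small to tell these shares apart. The peak of Rbl1, which encodes the retinoblastoma relative p107, had a log2 fold of 2.57 and a false discovery rate of 0.573 and lay past the end of the gene, 59.5 kb from its start. The peak of Fbxw7, which encodes the F-box protein that marks cyclin E for degradation, had a log2 fold of 2.74 and a rate of 0.429. It lay 1624 bp upstream of the transcript in the closest-transcript sheet and 138 kb upstream of the one in the wider annotation. No cyclin of the A or B type, CDK inhibitor, CDC25 or WEE1 gene, replication licensing gene or mitotic regulator of the list was closest to a peak. These groups hold 4, 7, 4, 8 and 6 genes, and groups of these sizes would mostly hold none at 2.52%.

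Among 50 cell death genes, 3 were closest to a peak (6.0%), namely Bax, Csrnp1 and Pmaip1. Without Bax and Csrnp1, it was 1 of 48 genes (2.08%), which is close to the 2.52% of all protein-coding genes. The peak of Pmaip1, which encodes the BH3-only protein Noxa, had a log2 fold of 2.69 and a false discovery rate of 0.463 and lay past the end of the gene, 8405 bp from its start. A peak with a log2 fold of 3.60 lay 16.2 kb downstream of the start of the survival gene Mcl1, with Adamtsl4 as its closest gene. None of the 6 survival members of the BCL2 family, the 6 apoptosome and mitochondrial genes, the 9 caspase and nuclease genes, the 4 inhibitors of apoptosis, the 8 death receptor genes or the 3 genes of the p53 axis was closest to a peak. Groups of these sizes would mostly hold none at 2.52%.

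Within 5 kb of a start the same rule left 3 cell cycle and 2 cell death genes, all 5 of them the genes chosen here. None of the other 51 and 48 list genes had a peak that near in the wider annotation, against 1.26% of protein-coding genes. At that share, lists of these sizes are too short to read a lack from. By the closest-transcript sheet, the Fbxw7 peak was within 5 kb too, 1624 bp upstream of a transcript. Without the 5 genes, 27 of 51 cell cycle genes and 28 of 48 cell death genes were listed for a peak at any distance, against 40.4% of protein-coding genes. Their nearest peaks lay at a median of 199 kb and 205 kb, against 233 kb for the 8857 protein-coding genes listed. With the 5 genes, which were chosen for near peaks, the medians were 150 kb and 198 kb. In the wider annotation, 9 of the other 51 cell cycle genes had a peak within 100 kb, the nearest being 27.9 kb from Aurkb. The D-type cyclin gene Ccnd1, the CDK inhibitor gene Cdkn1a and the phosphatase gene Cdc25a were among these 9, at 72.3, 41.8 and 35.8 kb. Those named here were picked after their values were seen, and other genes were closest to their peaks.

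**Figure D3:**
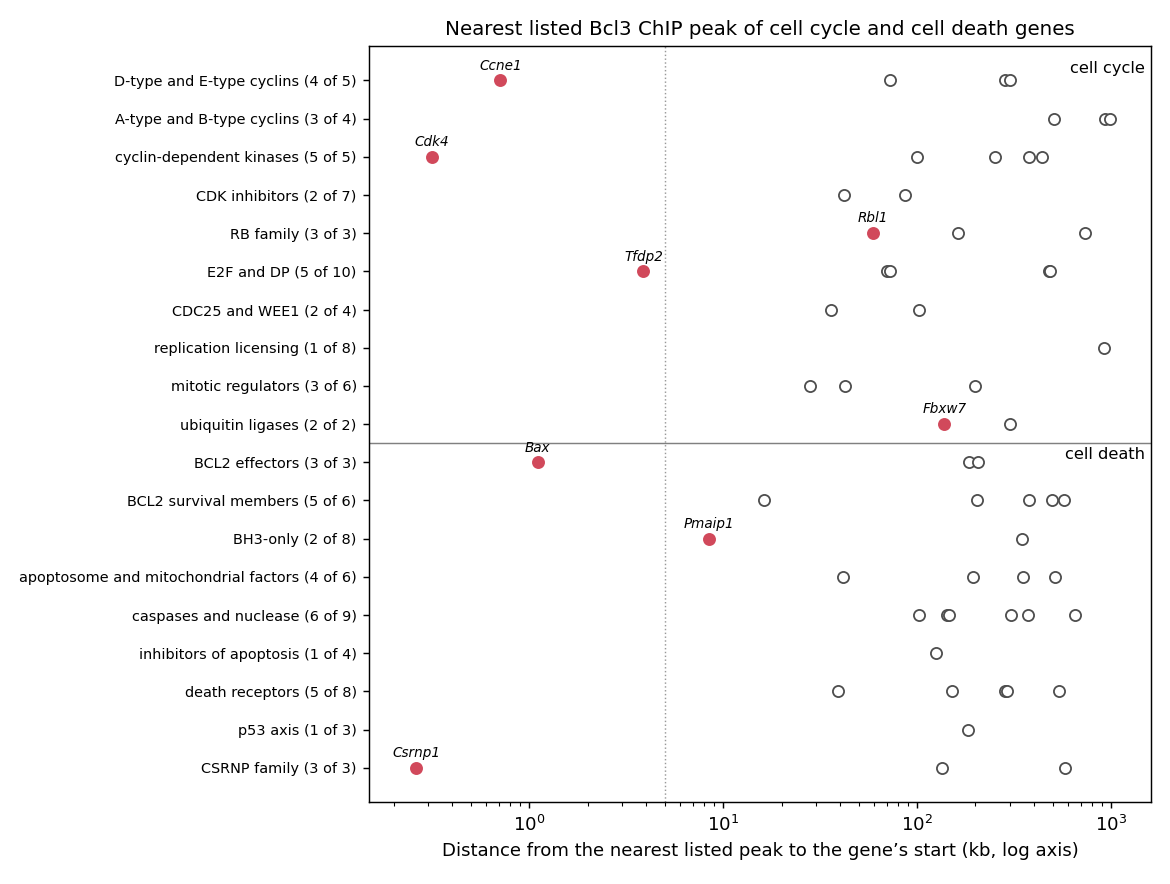
Distance in kb (log axis) from the nearest listed peak midpoint to the start of each gene of the cell cycle and cell death lists, with 1 row for each role and the number of its genes listed for any peak beside the label. Filled points are genes that are the closest gene of a peak, open points are the others, and the dotted line marks 5 kb. Only Cdk4, Ccne1, Tfdp2, Bax and Csrnp1 lie left of it, and Pmaip1 follows at 8.41 kb. Distances are from the wider annotation, which places the Fbxw7 peak 138 kb from the start. The closest-transcript sheet places that peak 1624 bp upstream of another Fbxw7 transcript.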

How the data were processed

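The authors deposited a workbook of peaks from the Bcl3 ChIP library. Its build is mm9, per the submitters' processing notes. For the aligner, the peak caller and its thresholds, the sources used here give no name. The deposited values of a peak are a log2 fold change (the greatest in the peak, with no denominator named in the header), a false discovery rate, read here as a q-value, a −log10 value of the smallest Poisson p-value, and a T score that was nearly proportional to the log2 fold and was not used. Lengths fall on a grid of 25 bp.

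From these files, with Python 3.11.15 and pandas 2.3.3, summits and peak edges were placed on the exons of the closest-transcript sheet, distances from midpoints were taken from the wider annotation, and peaks were ranked. Placement and motif search were checked on artificial cases. Symbols were matched to RefSeq genes of GRCm38.p6 by accession, then name (623 of 623 closest entries, 14511 of 14602 wider entries), for names and gene class. Promoter letters came from GRCm38.p6 and were not converted to mm9. A match on both strands at 1 place was counted once. With 1 library per group no samples were compared and no test was run.

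The genes and lists were chosen with earlier results of these data known. Named were the 5 genes, genes with a start within 10 kb of their peaks, list genes with a peak, close relatives, genes with 3 peaks, and, per peak, the 2 most similar in fold and kind of place. Mcl1, Aurkb, Ccnd1, Cdkn1a and Cdc25a were added after their values were seen. Alternatives covered the point measured, merging, stricter lists, ranking and windows.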

Additional observations from a re-analysis of the deposited data

How the results depend on the processing

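The count of 7 peaks within 5 kb of a start was equal when measured from the summit, from the nearest edge or to the closest-sheet transcript. Of 25 alternatives, 13 stayed within 1.5 times the reported count and 12 did not. The 8 peaks became 4 among the 565 with the greater Poisson score and 13 with every wider entry, while merging at gaps of 500, 1000 or 2000 bp left 7, 7 and 6. The 6 peaks among the 113 of highest fold became 2 by Poisson score and 0 when ranked among peaks of similar length. The 3 neighbouring genes within 10 kb became 1 within 5 kb and 16 within 50 kb. The 5 cell cycle genes became 3 within 5 kb of a start, 30 with every wider entry, 2 at the lowest false discovery rate and 1 among the 565 of greater Poisson score, and the 3 cell death genes became 30 with every wider entry. Motif matches over all 9 promoter windows of the 5 genes were 36 from 250 bases before to 50 after the start. They became 31 in the 250 bases before the start, and 21 from 100 bases before to 50 after. The wider windows and stricter lists change these counts by construction. No paired analysis was possible because there was 1 library per group. Without replicates or depth, no error can be given for a peak's fold.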
